A study of Sus scrofa with 10 samples.

Results

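The addition of JK07 to deoxycorticosterone acetate (DOCA) was examined in cardiomyocytes sorted from the hearts of minipigs (Sus scrofa). Members were chosen by the sample titles: 3 libraries carried DOCA and JK07 (libraries 8, 9 and 10) and 2 carried DOCA alone (libraries 6 and 7), which makes 5 of the 10 libraries of the series. The other 5 (libraries 1 to 5) were controls given PBS and served here as a reference level. All libraries were labelled wild type, both groups compared had received DOCA, and no library held JK07 without DOCA. Per the labels, RNA was taken from nuclei of the sorted cells and libraries were made with a TruSeq RNA kit. The sources used here gave no dose, duration, age, sex or heart chamber, and no label ties a library to its own animal. The p-values therefore reflect variation among these libraries, possibly technical.

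DOCA is a corticosteroid that activates the mineralocorticoid receptor and is given to animals to raise blood pressure and salt retention. The series title calls JK07 an ERBB4 agonist; ERBB4 is a receptor tyrosine kinase of cardiomyocytes. Ligands of the neuregulin family bind ERBB4 or ERBB3, and the receptors pair with each other or with ERBB2. Adaptors such as GRB2 and exchange factors such as SOS1 pass the signal to RAS and the MAP kinases, while PI3-kinase passes it to AKT. In cardiomyocytes this pathway is known for its part in growth, survival and the response to load. Nuclear RNA is rich in unspliced transcripts, so a level here stands for RNA held in the nucleus and not for the whole cell.

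Depth separated the 2 groups. Outside ribosomal RNA and the mitochondrial genome, libraries 6 and 7 held 6.87 M and 3.30 M estimated counts (M, 1e6 counts), and the JK07 libraries held 9.03 M to 12.9 M. Ribosomal RNA scaffolds took 88.2% to 90.8% of all counts in the DOCA libraries and 77.6% to 86.2% in the JK07 libraries. Of 13430 genes seen in 8 or more of the 10 libraries, 19.2% and 23.8% were listed at 0 in libraries 6 and 7, against 0.223% to 1.57% in the JK07 libraries. After every library was thinned to the smallest size the shares were 19.4% and 23.8% against 0.685% to 1.98%. Thinning drew at random from the deposited counts, where low coverage can already be listed as 0. It therefore cannot show what depth added to the zeros. On log2(CPM + 1) the DOCA libraries correlated with each other at 0.769 across genes and the JK07 libraries at 0.864. CPM below is the usual counts-per-million unit, here relative to counts outside ribosomal RNA and the mitochondrial genome after TMM scaling. The part of the ribosomal share and of the zeros in the results was not tested.

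The comparison asked which cardiomyocyte transcripts differed once JK07 was given with DOCA. LPL, TBX5, the Z disc gene MYOZ2 and all 13 protein genes of the mitochondrial genome rose. SOCS3, BCL3, PIM1 and TIMP1, genes of cytokine signalling, NF-kB and matrix turnover, fell. A gene is called higher or lower where the adjusted p of the edgeR quasi-likelihood test lay under 0.05 over all 17179 genes tested. By that rule 2423 genes (14.1%) were called higher and 448 (2.61%) lower with JK07. With every library thinned to the smallest, 2643 were called higher and 478 lower, with the zeros of the deposited counts left in place. Of the 2423, however, 1579 were listed at 0 in both DOCA libraries and 2 in 1 of them, where the fold has no size. Folds are therefore described for the 9102 genes above 0 in all 5 libraries. Among those 842 (9.25%) were called higher and 443 (4.87%) lower. Single libraries moved these counts, each taken over the genes above 0 in the libraries of the comparison that were left. Without library 7 they were 1273 and 801 (of 10697 genes), and without library 8 they were 543 and 188 (of 9128). The lower count was 201, 291, 227 and 259 without library 9, 10, 4 and 5. Over all genes tested in each fit the higher count was 3676 and 3653 without library 6 and 7, and the lower count was 813, 191, 206, 295, 231 and 263 without library 7, 8, 9, 10, 4 and 5.

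Ranges of 2 against 3 libraries separated often. In 2083 of the 9102 genes (22.9%) all 3 JK07 libraries lay above both DOCA libraries, and in 1741 (19.1%) all 3 lay below. With only 1 DOCA library left these counts were 3655 and 3641 of 10108 genes (without library 6) or 4350 and 3478 of 10697 (without library 7). All 842 genes called higher and 440 of the 443 called lower had such separate ranges. An exact permutation test of 2 against 3 libraries has 10 splits and cannot go below p = 0.1, so the calls rest on the spread shared with the other libraries of the model. Of the called genes, 430 higher and 103 lower held their call whichever of the 10 libraries was left out. A limma fit replaced the edgeR test and gave each library its own weight, so that noisier libraries counted less. In it only BCL3 and CHD9 of the 9102 genes were called. No limma fit of the counts was run without weights, so the part of the weights was not tested apart from that of the test. The balance of directions moved with the scaling: 65.5% of the called genes among the 9102 were higher with TMM, 42.7% with upper quartile scaling, 52.6% with library size alone and 97.8% on log2(TPM + 1). The median log2 fold change of these genes was -0.03 with TMM, -0.22, -0.15 and 0.52 with the others. TPM was used as deposited and, unlike CPM, was not rescaled to leave out ribosomal RNA. Ribosomal RNA took 88.2% to 90.8% of counts with DOCA and 77.6% to 86.2% with JK07. Its part in the TPM results was not tested. For the gene lists below, the percent of members called is to be read against the 14.1% higher and 2.61% lower of all genes. Of the genes behind that 14.1%, 1579 were at 0 in both DOCA libraries. Calls among members above 0 in all 5 libraries are to be read against 9.25% higher and 4.87% lower. Members that lie entirely higher or entirely lower are to be read against 22.9% and 19.1%. A gene that was not called is not thereby shown to be equal in both groups.

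**Figure D1:**
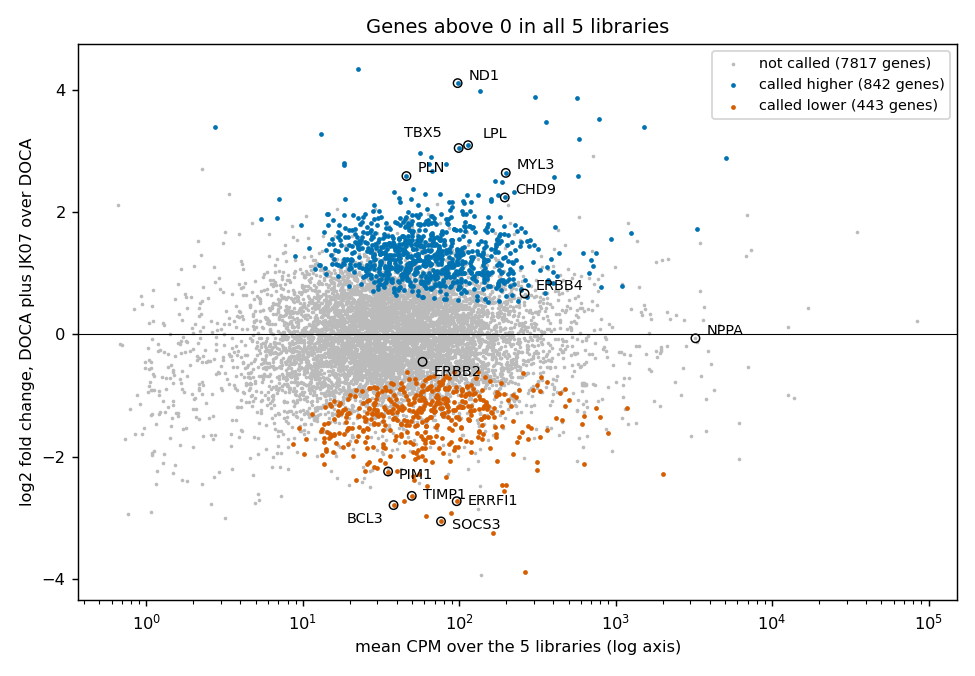
Log2 fold change of DOCA plus JK07 over DOCA (vertical axis) against mean CPM over the 5 libraries (horizontal log axis) for the 9102 genes above 0 in all 5, 1 point per gene. The 842 genes called higher are blue, the 443 called lower orange, and named genes are circled; NPPA, ERBB2 and ERBB4 lie among the genes that were not called.

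Set beside the controls, 1097 genes (6.39%) were called higher and 3312 (19.3%) lower in DOCA alone. DOCA plus JK07 against control gave 0 of 17179 genes (0.0%) in edgeR, with 816 at an unadjusted p under 0.05 and a lowest adjusted p of 0.965. DESeq2 called 115 genes there, and limma with quality weights 8. These comparisons share libraries with the main one, so their values are given side by side only, as control levels beside each gene.

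LPL, lipoprotein lipase, which releases fatty acids from circulating triglycerides for uptake by muscle, had the largest log2 fold change of a nuclear protein gene with a symbol and a level in all 5 libraries (ENSSSCG00000040631, chromosome 14, 4104772 to 4135814 on Sscrofa11.1). Its level was 29.5 and 11.5 CPM in the DOCA libraries and 259, 156 and 114 CPM in the JK07 libraries (log2 fold change 3.10, SE 0.54, adjusted p = 0.00305). The groups were far apart, and the controls at 78.8 to 165 (median 109.9) CPM overlapped the JK07 libraries and not the DOCA libraries. TBX5, a T-box transcription factor of the atria and the conduction system (ENSSSCG00000009867, chromosome 14, 37774171 to 37825401), had 21.97 and 14.9 CPM with DOCA and 54.7, 144 and 261 CPM with JK07 (log2 fold change 3.05, SE 0.65, adjusted p = 0.00961). All 3 JK07 libraries were higher than both DOCA libraries, but they spread widely, with library 8 lowest and library 10 highest.

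Genes of the contractile apparatus and its calcium supply stood among the 12 nuclear genes with the largest rises, a set singled out after the values were seen. MYOZ2, a calcineurin-binding protein of the Z disc, had 131 and 70.1 CPM with DOCA and 689, 527 and 590.1 CPM with JK07 (log2 fold change 2.58, SE 0.34, adjusted p = 0.000505). MYL3, the ventricular essential myosin light chain, had 60.7 and 34.95 against 143, 461 and 293 CPM (log2 fold change 2.64, SE 0.50, adjusted p = 0.00517). PLN, phospholamban, which inhibits the SERCA calcium pump, had 13.3 and 9.53 against 70.1, 50.4 and 86.7 CPM (log2 fold change 2.59, SE 0.44, adjusted p = 0.00258). In each of these the lowest JK07 library exceeded the highest DOCA library. Controls held 70.4 to 153 (median 125) CPM of PLN, a range that only JK07 library 10 reached.

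ABCC9, the sulfonylurea receptor subunit of the cardiac ATP-sensitive potassium channel, had 65.7 and 33.5 CPM with DOCA and 292, 216 and 330.1 CPM with JK07 (log2 fold change 2.49, SE 0.44, adjusted p = 0.00331). ALDH7A1, an aldehyde dehydrogenase of lysine breakdown, had 12.8 and 16.1 against 76.7, 61.6 and 87.2 CPM (log2 fold change 2.38, SE 0.31, adjusted p = 0.000408). DECR1, a reductase needed to oxidise unsaturated fatty acids, was evenly separated, with 13.2 and 9.04 CPM against 63.6, 55.3 and 49.5 CPM (log2 fold change 2.33, SE 0.26, adjusted p = 0.000178), and its JK07 levels touched the controls at 55.97 to 81.3 (median 62.5) CPM. ZBED5 rose by 2.79, FSD2, a muscle protein of the sarcoplasmic reticulum region, by 2.68 and POSTN, periostin of the extracellular matrix, by 2.78 on the log2 scale. FSD2 lost its call without library 7 (2.51, adjusted p = 0.0654), and POSTN without library 6 (3.00, adjusted p = 0.0759), 7 (2.67, adjusted p = 0.0986), 8 (2.37, adjusted p = 0.0729) or 9 (2.69, adjusted p = 0.0581). POSTN with JK07 ran from 30.8 CPM in library 10 to 188 CPM in library 8.

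The largest fold changes among named genes with a level in all 5 libraries belonged to the mitochondrial genome, whose 13 protein genes encode core subunits of the respiratory chain and ATP synthase. All 13 were called higher and did not overlap between groups, with a median log2 fold change of 3.47. ND1 of complex I had 12.6 and 5.38 CPM with DOCA and 111, 106 and 254 CPM with JK07 (log2 fold change 4.11, SE 0.64, adjusted p = 0.00137). COX2 of cytochrome c oxidase had 42.1 and 22.97 against 355, 366 and 731 CPM (log2 fold change 3.89, SE 0.56, adjusted p = 0.000874), and ATP8 of ATP synthase had 2.52 and 0.978 against 24.3, 32.7 and 51.8 CPM (log2 fold change 4.34, SE 0.70, adjusted p = 0.00172). ND2, ATP6, COX3, CYTB, COX1 and ND4 rose by 3.99, 3.87, 3.53, 3.47, 3.40 and 3.19 on the log2 scale. The 13 protein genes summed to 513 to 1106 CPM with DOCA and 5800 to 12596 CPM with JK07. Controls summed to 3591 to 7075 CPM. All 37 rows of the mitochondrial genome, not only its protein genes, entered its share of counts outside the ribosomal RNA scaffolds. That share was 2.58% and 0.488% in libraries 6 and 7, 4.40%, 4.91% and 8.26% in the JK07 libraries and 3.69% to 5.57% in controls. These transcripts are made outside the nucleus, and the part of RNA carried over with the nuclei was not tested. The short miRNA row ssc-mir-10390 on chromosome 9 also rose (2.7 and 1.47 against 15.8, 12.8 and 33.04 CPM, log2 fold change 3.28, SE 0.55, adjusted p = 0.00235).

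SOCS3, the feedback inhibitor of gp130 and STAT3 signalling (ENSSSCG00000036956, chromosome 12, 3643929 to 3647009), had the largest fall of a called gene with a symbol and a level in all 5 libraries. It stood at 225 and 99.2 CPM with DOCA and at 14.5, 30.4 and 13.3 CPM with JK07 (log2 fold change -3.06, SE 0.52, adjusted p = 0.0026), and the controls at 22.4 to 53.8 (median 34.8) CPM overlapped the JK07 libraries and not the DOCA libraries. BCL3, an IkB family coactivator of NF-kB p50 and p52 (ENSSSCG00000027426, chromosome 6, 51256033 to 51265351), was at 88.4 and 68.2 CPM with DOCA and 11.01, 13.3 and 9.51 CPM with JK07 (log2 fold change -2.79, SE 0.26, adjusted p = 5.88e-05). Its libraries were close within each group, and it was called lower in every one of the 23 alternative settings. PIM1, a kinase induced by STAT3 and STAT5, had 54.6 and 78.9 against 9.32, 21.3 and 11.6 CPM (log2 fold change -2.25, SE 0.42, adjusted p = 0.00489), and its relative PIM3 had 133 and 61.8 against 17.4, 24.8 and 16.7 CPM (log2 fold change -2.31, SE 0.35, adjusted p = 0.00109). For both, DOCA libraries were above all others of the series.

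TIMP1, an inhibitor of matrix metalloproteinases, stood at 95.6 and 105 CPM with DOCA and 8.13, 17.2 and 22.8 CPM with JK07 (log2 fold change -2.64, SE 0.47, adjusted p = 0.0034). NFIL3, a basic leucine zipper repressor, had 50.96 and 40.1 against 10.7, 14.6 and 12.2 CPM (-1.86, SE 0.37, adjusted p = 0.00695), and the acute-phase transcription factor CEBPD had 267 and 313 against 91.1, 131 and 57.7 CPM (-1.63, SE 0.32, adjusted p = 0.00647). TNFRSF1A, the main receptor of tumour necrosis factor, had 155 and 146 against 44.2, 65.97 and 41.6 CPM (-1.57, SE 0.31, adjusted p = 0.00677). RELB, an NF-kB subunit chosen after its values were seen, had 60.3 and 52.5 against 14.2, 13.5 and 9.27 CPM (-2.19, SE 0.45, adjusted p = 0.00811). All 5 held their call in each of the 10 fits without 1 library, and all 5 had no overlap between the groups.

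The list of inflammation, NF-kB and gp130 to STAT3 genes held 31 genes tested, of which 5 fell and 1 rose. Of its 27 members above 0 in all 5 libraries, 13 had all JK07 libraries below both DOCA libraries and 3 had them above, with a median log2 fold change of -1.06 against -0.03 over the 9102 genes. The members that fell were SOCS3, PIM1, TNFRSF1A, RELB and IL6ST, the gp130 receptor chain. IL6ST, named after its values were seen, had 669 and 549 CPM against 165, 314 and 135 CPM (-1.57, SE 0.43, adjusted p = 0.0353) ; its call was lost without library 2, 4, 5, 6, 7, 8 or 10 (-1.57, -1.47, -1.47, -1.42, -1.64, -1.44 and -1.35). The member that rose was the chemokine CXCL12 (32.95 and 47.4 against 117, 123 and 69.9 CPM, 1.36, SE 0.30, adjusted p = 0.0123), which lost its call without library 6 (1.13, adjusted p = 0.0655). STAT3 itself had 448 and 224 against 159, 194 and 132 CPM and was not called (-1.06, SE 0.39, adjusted p = 0.102). Fits without 1 library gave 4 to 8 lower members (5 in the full fit and 8 without library 2), upper quartile scaling gave 8 and log2(TPM + 1) gave 4 lower and 4 higher.

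The other genes with the largest falls leaned on single libraries. Without library 6 the log2 fold change of the Hippo pathway transcription factor TEAD4 went from -2.93 to -1.22, adjusted p = 0.13, that of SBNO2, a gene induced by gp130 cytokines, from -2.46 to -1.20, adjusted p = 0.0661, and that of EEIG1 from -2.46 to -0.84, adjusted p = 0.283. Likewise MICALL2 went from -2.73 to -1.28, adjusted p = 0.318, SPECC1 from -2.48 to -1.72, adjusted p = 0.148, RRP9, a nucleolar protein of rRNA processing, from -2.39 to -0.61, adjusted p = 0.445 and PKDCC from -2.38 to -1.45, adjusted p = 0.106. DHODH, the mitochondrial enzyme of pyrimidine synthesis, went from -2.97 to -1.99, adjusted p = 0.166 without library 7. All but SBNO2 also lost the call without further libraries. TEAD4 did so without 8 (-2.82), EEIG1 without 9 or 10 (-2.37 and -2.18) and PKDCC without 8 or 10 (-2.40 and -2.22). RRP9 did so without 4, 8, 9 or 10 (-2.31, -2.50, -2.18 and -2.43) and SPECC1 without 3, 5, 8, 9 or 10 (-2.48, -2.38, -2.65, -2.74 and -2.07). MICALL2 lost it without 1, 3, 4, 8, 9 or 10 (-2.73, -2.73, -2.64, -2.83, -2.93 and -2.40) and DHODH without 2, 3, 5, 8, 9 or 10 (-2.97, -2.97, -2.84, -2.56, -3.29 and -3.07). The lowest adjusted p among falling genes, a choice made after the values were seen, marked a further set. This choice favours genes with little spread within groups, so their steadiness follows from it. PLEC, plectin of the cytoskeletal linkage, went from 4921 and 2739.5 CPM to 661, 905 and 791 CPM (-2.29, SE 0.35, adjusted p = 0.00116), and LETM1, an ion exchanger of the inner mitochondrial membrane, from 236 and 146 to 45.4, 63.1 and 63.2 CPM (-1.74, SE 0.27, adjusted p = 0.00129). FHIP1B, ZNF316, ZGPAT, PGS1, AKAP17A, SNX8 and CREBZF fell by -1.48, -2.05, -1.99, -1.75, -1.60, -1.73 and -1.58 in log2 units and were called in each fit without 1 library.

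**Figure D2:**
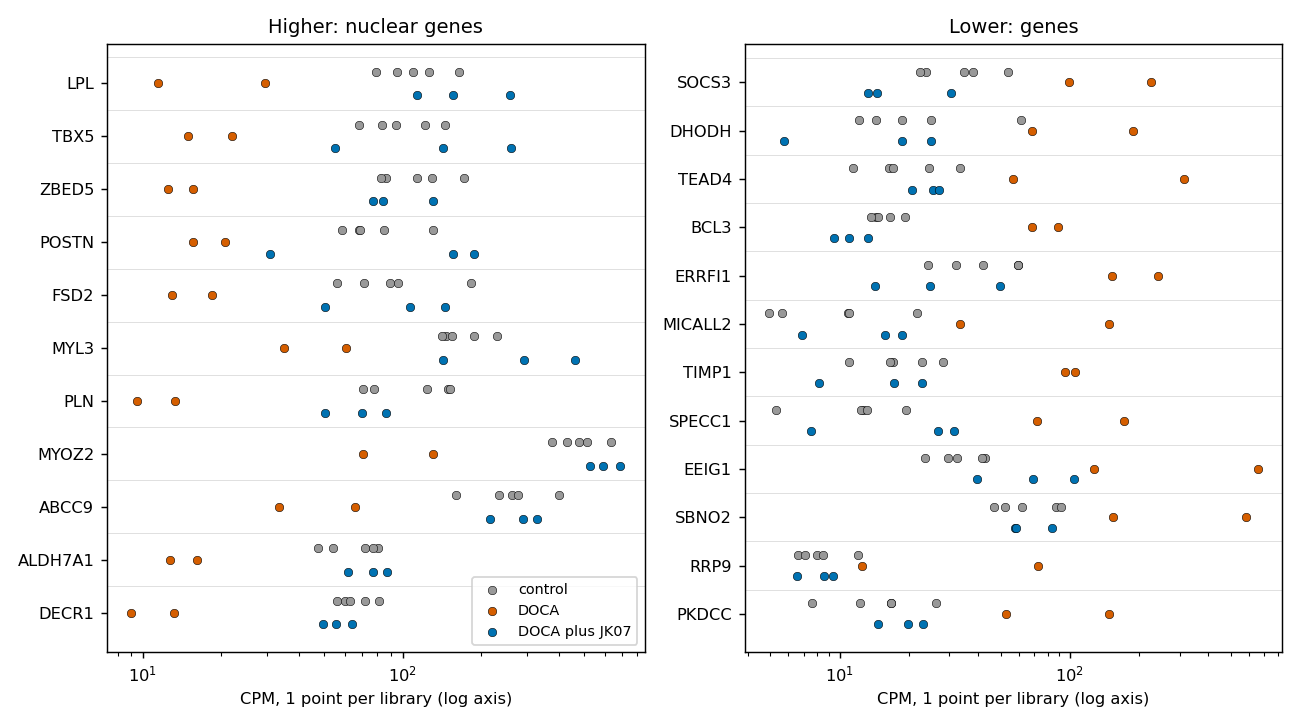
CPM per library (log axis, 1 point per library) for 11 of the 12 nuclear genes with the largest rises (left) and the 12 genes with the largest falls (right); grey points are the 5 controls, orange the 2 DOCA libraries, blue the 3 DOCA plus JK07 libraries. In every row the blue and orange points do not overlap; for LPL orange lies at 11.5 and 29.5 CPM and blue at 114 to 259 CPM.

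Transcripts of the ERBB receptors were not called. ERBB4, the receptor named for JK07 (ENSSSCG00000016160, chromosome 15, 113974437 to 115096565), had 243 and 144 CPM with DOCA and 369.7, 178 and 374 CPM with JK07, and JK07 library 9 fell between the DOCA libraries (log2 fold change 0.67, SE 0.44, adjusted p = 0.337). ERBB2, its partner without a ligand of its own, had 66.8 and 72.1 against 27.4, 42.2 and 83.1 CPM, overlapping as well (log2 fold change -0.45, SE 0.40, adjusted p = 0.472), and its sign turned on the TPM scale. ERBB3 differed most between the DOCA libraries, with 0 in library 6 but 69.9 CPM in library 7. Its JK07 levels of 10.9, 22.9 and 34.8 CPM fell between them, so the sign depends on which DOCA library is read. The ligand gene NRG1, neuregulin 1, ranged from 13.0 to 52.5 CPM with DOCA and from 11.8 to 142 CPM with JK07 (1.00, SE 0.99, adjusted p = 0.531). ERBB4 passed the threshold in 2 of the 23 alternatives, both on the TPM scale. ERBB2 passed in 1, without library 10 (adjusted p = 0.0468). ERBB3 was called without library 7, where the only DOCA library left is at 0 (adjusted p = 0.00278), and was at -1.61 without library 6.

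Among 17 tested ERBB receptors, ligands and adaptors, 2 fell (1 without library 8 or 9) and 3 rose, 2 of the latter (the ligand NRG4 and the ubiquitin ligase NEDD4) from 0 in both DOCA libraries. ERRFI1, an inhibitor that binds EGFR and ERBB2 kinase domains and is induced by growth factors and by steroids (ENSSSCG00000035774, chromosome 6, 68669153 to 68682623), fell from 152 and 241 CPM to 14.2, 49.9 and 24.7 CPM (log2 fold change -2.73, SE 0.55, adjusted p = 0.00722); the controls lay at 24.3 to 59.7 (median 41.99) CPM, below both DOCA libraries. The adaptor GRB2 had 77.8 and 115 against 41.5, 33.2 and 56.3 CPM (-1.14, SE 0.28, adjusted p = 0.0198), and lost its call without library 7 (-0.77, adjusted p = 0.121), 8 (-1.11, adjusted p = 0.0668) or 9 (-0.87, adjusted p = 0.0811). BACE1, a protease that cleaves neuregulin precursors, rose from 18.4 and 23.9 to 37.9, 44.6 and 46.6 CPM (1.02, SE 0.24, adjusted p = 0.0162) but not without library 6 (0.85, adjusted p = 0.0608). Of the 12 members above 0 in all 5 libraries, 5 had all JK07 libraries lower and 1 higher, to be read against 19.1% and 22.9% of the 9102 genes. Their median log2 fold change was -0.44.

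In the RAS and MAPK cascade 7 of 24 genes were called higher (29.2%) and 0 lower, 5 of the 7 above 0 in all 5 libraries. Without library 2, 6 or 7 the list had 1 lower. SOS1, the exchange factor that loads RAS, had 31.7 and 35.7 CPM with DOCA and 104, 88.9 and 87.2 CPM with JK07 (log2 fold change 1.47, SE 0.21, adjusted p = 0.000763), levels that lay within or close to the control range of 80.7 to 118 (median 100.8) CPM. NF1, the RAS inhibitor neurofibromin, had 66.8 and 116 against 261, 227 and 213 CPM (1.35, SE 0.24, adjusted p = 0.00367), and the scaffold SHOC2 had 23.8 and 17.4 against 56.9, 56.3 and 38.1 CPM (1.29, SE 0.27, adjusted p = 0.00796). SOS1 activates RAS and NF1 inhibits it, so risen members have opposite known actions. NRAS, a RAS protein, was listed at 0 in both DOCA libraries and above 0 in every JK07 library. Of 16 MAPK feedback phosphatases and Sprouty genes, targets of ERK that report its activity in many cells, 1 was called higher (DUSP14, from 0 in both DOCA libraries) and 0 lower. Of 25 immediate early genes 1 was called higher (NR4A2, also from 0) and 0 lower. Both shares lay below the 14.1% of all genes, and the counts moved with the DOCA library left out. Of the 2423 genes behind that 14.1%, however, 1579 were at 0 in both DOCA libraries. Of the 12 and 22 members above 0 in all 5 libraries 0 were called, to be read against 9.25% higher and 4.87% lower. ERK activity itself was not measured.

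In the PI3-kinase, AKT and mTOR list 4 of 28 genes were called higher (14.3%, near the 14.1% of all genes; 2 without library 1, 3, 8 or 9) and 0 lower (3 without library 7), but of its 24 members above 0 in all 5 libraries 7 lay entirely higher and 8 entirely lower. DEPTOR, a binding partner that restrains mTOR, had 14.4 and 20.04 against 75.1, 81.4 and 34.2 CPM (1.89, SE 0.42, adjusted p = 0.012; 1.67, adjusted p = 0.0631 without library 6). PIK3R1, the regulatory subunit of PI3-kinase, had 17.8 and 51.1 against 106, 99.7 and 76.5 CPM (1.46, SE 0.40, adjusted p = 0.0366). It moved with the choice of DOCA library, to 0.88, adjusted p = 0.0669 without library 6 and to 2.47 without library 7. The call of PIK3R1 was also lost without library 1, 3, 8 or 9 (1.45, 1.45, 1.36 and 1.53). With upper quartile scaling this list had 2 higher and 4 lower. In the cell cycle list 8 of 32 genes were called higher, 6 of them from 0 in both DOCA libraries, and 1 lower (0 without library 6 or 9). RBL2, a retinoblastoma family repressor of quiescent cells, rose from 17.1 and 27.6 to 69.7, 64.5 and 70.1 CPM (1.61, SE 0.28, adjusted p = 0.0026). RB1 itself was called at 1.03 (lost without library 6, 0.69, adjusted p = 0.0672, or 8, 0.94, adjusted p = 0.0621) and CDK6 at -1.10 (lost without library 6, -0.73, adjusted p = 0.0557, or 9, -1.01, adjusted p = 0.0571).

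**Figure D3:**
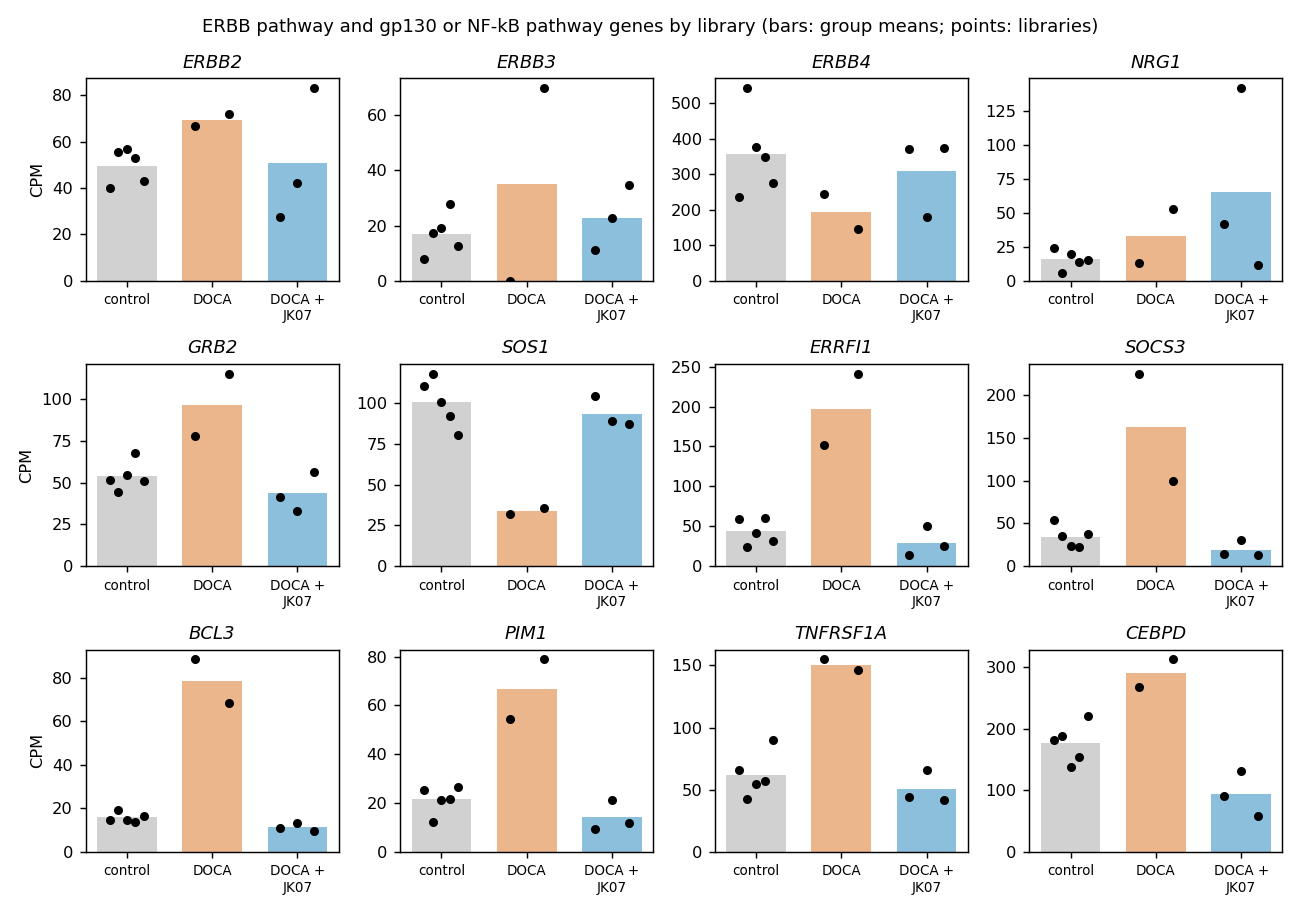
CPM (vertical axis, from 0) of 12 genes of the ERBB pathway and of the gp130 and NF-kB response in the 3 groups; bars are group means and points are libraries (5 controls, 2 DOCA, 3 DOCA plus JK07). Groups overlap for ERBB4, ERBB2 and NRG1, whereas SOCS3, BCL3, PIM1 and ERRFI1 are highest in both DOCA libraries.

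Of 66 nuclear genes of oxidative phosphorylation 13 were called higher (19.7%, against 14.1% of all genes) and 0 lower (1 without library 6). The median log2 fold change of all 66 was 0.56, against 0.50 over all genes tested. Of the 56 above 0 in all 5 libraries 18 lay entirely higher and 0 entirely lower, with a median log2 fold change of 0.49. COX6C, a cytochrome c oxidase subunit, had 10.1 and 10.8 CPM with DOCA and 42.7, 28.2 and 29.1 CPM with JK07 (1.68, SE 0.31, adjusted p = 0.00438). ATP5PO of ATP synthase had 10.1 and 11.5 against 34.4, 25.3 and 54.6 CPM (1.82, SE 0.35, adjusted p = 0.00562), and NDUFS3 of complex I had 8.64 and 8.31 against 18.6, 19.4 and 32.5 CPM (1.47, SE 0.31, adjusted p = 0.00979). Leaving out library 8 gave 8 higher members, leaving out library 10 gave 9, and the fit of the 5 libraries alone gave 2.

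In the tricarboxylic acid cycle list 6 of 28 genes rose (21.4%) and 0 fell, with 11 of 23 members entirely higher and 0 entirely lower. CS, citrate synthase at its entry, was even within groups, with 69.9 and 69.7 CPM and then 139.7, 131 and 165 CPM (1.06, SE 0.22, adjusted p = 0.00831), and the controls were at 153 to 238 (median 174) CPM. MDH1, the cytosolic malate dehydrogenase, had 16.9 and 41.3 against 119, 84.7 and 187 CPM (2.16, SE 0.47, adjusted p = 0.0108), and SUCLA2, a succinyl-CoA synthetase subunit, had 16.6 and 16.4 against 44.5, 35.3 and 57.8 CPM (1.48, SE 0.36, adjusted p = 0.0192), a call lost without library 6 (1.49, adjusted p = 0.0635) or 10 (1.27, adjusted p = 0.0513). Of 30 genes of fatty acid uptake and oxidation 8 rose (26.7%; 5 without library 8 or 10) and 1 fell, and 11 of 24 lay entirely higher. Beside LPL and DECR1, ETFA, which takes electrons from acyl-CoA dehydrogenases, went from 11.7 and 11.2 to 43.5, 29.6 and 40.1 CPM (1.72, SE 0.28, adjusted p = 0.00188). The member that fell was the triglyceride lipase PNPLA2 (-0.93, SE 0.25, adjusted p = 0.0295), a call lost in 6 fits without 1 library (4, 5, 6, 8, 9 and 10, with -0.84, -0.84, -0.52, -0.95, -0.90 and -0.86).

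Glycolysis went both ways, with 2 of 26 genes higher (7.69%; 1 without library 1, 7, 8 or 10) and 1 lower (2 without library 7). The muscle enolase ENO3 rose from 41.8 and 26.4 to 84.6, 73.8 and 162 CPM (1.65, SE 0.40, adjusted p = 0.0191; 1.42, adjusted p = 0.076 without library 7), while the ubiquitous enolase ENO1 fell from 388 and 212 to 122, 146 and 159 CPM (-1.07, SE 0.25, adjusted p = 0.0162), lost without library 4, 6, 8 or 9 (-0.98, -0.57, -0.98 and -1.01). PGK1 was called at 0.88 and lost its call without library 1, 6, 7, 8 or 10 (0.88, 0.96, 0.87, 0.94 and 0.70). POLG, the mitochondrial DNA polymerase, fell from 166 and 172 to 79.05, 100.2 and 92.6 CPM (-0.90, SE 0.20, adjusted p = 0.012), in a list of 22 regulators of mitochondrial biogenesis with 2 higher members, both from 0 in the DOCA libraries. That list had 6 higher without library 6, and 4 higher and 3 lower without library 7.

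Of 63 cytosolic ribosomal protein genes, all above 0 in all 5 libraries, 11 were called higher (17.5%, against 9.25% of the 9102; 7 without library 8) and 0 lower, and 31 lay entirely higher against 3 entirely lower, with a median log2 fold change of 0.51. RPL14 had 14.8 and 14.9 CPM with DOCA and 42.9, 53.2 and 53.2 CPM with JK07 (1.75, SE 0.23, adjusted p = 0.000495), while RPL23 rose by 1.06 and RPS3A by 1.03. Upper quartile scaling and library size alone gave 6 of 63 higher, and log2(TPM + 1) gave 38. These genes have near-identical copies in the genome, so their counts are uncertain. Of 65 mitochondrial ribosomal proteins 12 rose (18.5%; 20 without library 6), 9 of them from 0 in both DOCA libraries, and 2 fell (5 without library 7, 1 without library 8 or 9). MRPS22 rose from 17.8 and 24.7 to 71.9, 52.6 and 56.7 CPM (1.51, SE 0.29, adjusted p = 0.00524) and MRPL38 fell from 38 and 33.7 to 15.8, 16.6 and 16.8 CPM (-1.13, SE 0.21, adjusted p = 0.00416). MRPS34 (-1.46) lost its call without library 8 or 9 (-1.34 and -1.37). MRPL9 (0.96) lost it without library 8 or 10 (0.98 and 0.90). MRPS10 (1.29) held it only without library 5 or 7 (1.40 and 1.55).

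Sarcomere and Z disc genes held 4 risen members of 37, 10.8% against the 14.1% of all genes, and 0 that fell (4 without library 7, 1 without library 10). All 4 were among the 35 members above 0 in all 5 libraries, to be read against the 9.25% called higher of the 9102 genes. Beside MYOZ2 and MYL3, the thin filament nucleator LMOD2 rose from 280.2 and 258 to 572, 477 and 516 CPM (0.95, SE 0.21, adjusted p = 0.0132). The main myosin heavy chains were not called: MYH6, the atrial form, had 16125 and 11773 CPM against 14671, 14338 and 27549.9 CPM (0.43, SE 0.40, adjusted p = 0.49), and MYH7, the slow ventricular form, had 2861 and 2142 against 2348, 4799 and 5106 CPM (0.71, SE 0.36, adjusted p = 0.226). TTN was not matched by symbol and is not reported. In the calcium handling list 5 of 33 rose (15.2%, near the 14.1% of all genes; 8 without library 6, 3 without library 10) and 0 fell (1 without library 7), and 10 of 28 lay entirely higher against 1 lower. All 5 that rose were among those 28 members above 0 in all 5 libraries, again to be read against 9.25%. PPP3CB, a catalytic subunit of calcineurin, had 41.4 and 48.1 against 184, 163 and 104 CPM (1.75, SE 0.27, adjusted p = 0.0014). The kinase CAMK2G had 16.03 and 18.8 against 34.1, 43.6 and 54.7 CPM (1.34, SE 0.25, adjusted p = 0.00481). At the intercalated disc 3 of 23 genes rose (13.0%, near the share of all genes; 1 without library 8) and 0 fell (2 without library 6, 1 without library 7). CTNNB1, beta-catenin, was at 0.82 (lost without library 8, 0.74, adjusted p = 0.0531). CTNNA3, alpha-T-catenin, was at 1.46 (lost without library 7, 1.18, adjusted p = 0.0852, 8, 1.40, adjusted p = 0.0603, or 10, 1.41, adjusted p = 0.0524).

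Of 34 ion channels and transporters 7 rose (20.6%; 11 without library 6) and 0 fell (2 without library 7), 4 of the 7 from 0 in both DOCA libraries (CACNA1D, KCND3, KCNE3 and KCNN3). TRPM7, a magnesium-permeable channel kinase, went from 175 and 88.2 to 434, 339 and 376 CPM (1.54, SE 0.33, adjusted p = 0.00989). Cardiac transcription factors had 6 risen members of 31 (19.4%; 10 without library 7) and 0 that fell (2 without library 7). MEF2A, a MADS-box factor of muscle genes, had 108 and 62.1 against 334, 205 and 253 CPM (1.63, SE 0.33, adjusted p = 0.00698), and MITF had 53.7 and 38.9 against 136, 140.2 and 174 CPM (1.70, SE 0.30, adjusted p = 0.00291). The list of 36 genes at loci linked to atrial fibrillation held 7 that rose (19.4%), TBX5 and PLN among them, and 2 that fell (0 without library 6 or 9, 1 without library 4 or 5). The first of those was MYO18B (2171 and 839 against 504, 399.8 and 564 CPM, -1.62, SE 0.36, adjusted p = 0.0119; lost without library 6, -0.78, adjusted p = 0.0672, or 9, -1.41, adjusted p = 0.0675). The second, SH3PXD2A (-0.69), lost its call without library 4, 5, 6 or 9 (-0.59, -0.59, -0.61 and -0.59). Its sign turned on the TPM scale. Of the 28 members of this list above 0 in all 5 libraries 3 were called higher, to be read against 9.25% of the 9102 genes. Of those 28, 6 lay entirely higher and 3 entirely lower, to be read against 22.9% and 19.1%.

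Natriuretic peptides, the usual markers of cardiac load, were not called. NPPA, the atrial natriuretic peptide gene, had 3213 and 3435 CPM with DOCA and 2658, 3009 and 3864 CPM with JK07 (-0.07, SE 0.26, adjusted p = 0.915), and NPPB had 164 and 260.0 against 179, 294 and 81.4 CPM (-0.20, SE 0.79, adjusted p = 0.914); for both the groups overlapped and the sign turned under several settings, the TPM scale included. SLN, sarcolipin of atrial calcium cycling, ran from 29.7 to 153 CPM with JK07 around the DOCA values of 59.8 and 48.1 CPM (0.51, SE 0.71, adjusted p = 0.682; -0.49 without library 8). Of 21 natriuretic and fetal-type genes 1 was called (1 higher and 2 lower without library 7), the protease FURIN, which had 319.6 and 120.0 against 98.1, 62.1 and 93.1 CPM (-1.38, SE 0.38, adjusted p = 0.0372) and -0.51, adjusted p = 0.316 without library 6. It also lost the call without library 3, 4, 5, 8, 9 or 10 (-1.38, -1.29, -1.29, -1.50, -1.12 and -1.46).

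Of 26 corticosteroid response genes 4 fell (15.4%, against 2.61% of all genes; 2 without library 8 or 10) and 1 rose (0 without library 6, 4 without library 7). Those that fell were ERRFI1, CEBPD, PNPLA2 and CEBPB, the last from 153 and 212 to 61.9, 103 and 63.8 CPM (-1.26, SE 0.32, adjusted p = 0.0228) and lost without library 7 (-0.94, adjusted p = 0.115), 8 (-1.13, adjusted p = 0.082) or 10 (-1.15, adjusted p = 0.0729). TXNIP, a thioredoxin inhibitor, rose from 373 and 399 to 1076, 874 and 735 CPM (1.21, SE 0.28, adjusted p = 0.0142; 1.17, adjusted p = 0.0518 without library 6). On log2(TPM + 1) the corticosteroid list had 5 higher and 1 lower, so its lower calls depend on the scale. The fit of the 5 libraries alone gave 0 lower, and upper quartile scaling gave 5. NR3C2, the mineralocorticoid receptor on which DOCA acts, had 33.1 and 64.8 against 66.8, 81.3 and 100.3 CPM and did not pass in the full fit (0.76, SE 0.33, adjusted p = 0.155), although its ranges were separate. NR3C2 was at 0.36 without library 6 and was called without library 7 (1.39, adjusted p = 0.0185) and on the TPM scale. NR3C1, the glucocorticoid receptor, had 119.6 and 85.3 against 141, 132 and 148 CPM (0.45, SE 0.21, adjusted p = 0.189). FKBP5, a chaperone gene induced through these receptors, overlapped widely, with 326 and 210.4 against 347, 184 and 81.6 CPM (-0.39, SE 0.58, adjusted p = 0.703), and its sign turned on the TPM scale.

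Extracellular matrix and fibrosis genes had 4 fallen members of 44 (9.09%; 2 without library 4, 5, 6, 8 or 10) and 1 risen, POSTN (3 risen without library 7, 0 without library 8 or 9). Beside TIMP1, TGFB1, the profibrotic cytokine, fell from 96.2 and 63.05 to 29.6, 32.1 and 31.3 CPM (-1.36, SE 0.25, adjusted p = 0.0043), and the basement membrane collagen COL4A2 from 1373 and 882 to 451, 614 and 398 CPM (-1.21, SE 0.32, adjusted p = 0.0294), which lost its call without library 4, 6, 8, 10 or 5 (-1.11, -0.85, -1.16, -1.08 and -1.11). COL4A1, the partner collagen, was the other fallen member, from 2200.0 and 1371 to 800.4, 936 and 577 CPM, with an adjusted p just under the threshold (-1.21, SE 0.36, adjusted p = 0.0473). Only 2 of the 4 fallen members, TIMP1 and TGFB1, held their call in all 10 fits without 1 library, and COL4A1 did not. On log2(TPM + 1) this list had 6 higher and 1 lower, so the lower calls depend on the scale. In the Hippo list of 22 genes (4 higher and 0 lower without library 6, 2 higher and 4 lower without library 7, 1 lower without library 4, 5, 8 or 9), LATS1, a kinase of the pathway, rose (1.13, SE 0.21, adjusted p = 0.00437) and TEAD4 and NF2 (-0.95, SE 0.23, adjusted p = 0.0173) fell; NF2 lost its call without library 4, 5, 6 or 9 (-0.85, -0.85, -0.74 and -0.92).

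Chromatin remodelers and modifiers had 9 risen members of 46 (19.6%; 14 without library 7) and 2 that fell (4 without library 7, 0 or 1 without 1 of the others but library 2), and of 44 above 0 in all 5 libraries 19 lay entirely higher and 4 entirely lower. CHD9, a chromodomain helicase (ENSSSCG00000033591, chromosome 6, 31830505 to 31980085), had 43.8 and 77.2 CPM with DOCA and 299.5, 299 and 258 CPM with JK07 (log2 fold change 2.24, SE 0.26, adjusted p = 0.000221); it was called in all 23 alternatives. The histone H3 lysine 36 methyltransferase SETD2 rose by 1.07 and SMARCC1 of the SWI/SNF complex by 0.91. SMARCA4 (-0.61) and KMT2B (-1.06) were called lower. Of the 10 fits without 1 library SMARCA4 kept its call in 3 (without 2, 7 or 10) and KMT2B in 2 (without 2 or 7), with -0.50 and -0.65 without library 6. SMARCA4 turned sign on the TPM scale. Among 42 splicing factors 4 rose, 9.52% against the 14.1% of all genes, and 0 fell. The list had 12 higher without library 6, 2 lower without library 7 and 23 higher on log2(TPM + 1). TRA2A went from 41.6 and 33.97 to 98.5, 93.4 and 99.7 CPM (1.36, SE 0.17, adjusted p = 0.000358), SRSF11 rose by 0.72 and SRSF5 by 1.19 (lost without library 7, 0.90, adjusted p = 0.0706, or 8, 1.08, adjusted p = 0.0721), and HNRNPH2 came from 0.

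In the circadian list 4 of 21 rose (19.0%; 8 without library 6) and 1 fell (2 without library 2, 6 or 7). NR1D2, a repressor in the clock loop, went from 16.9 and 23.7 to 92.5, 62.98 and 83.1 CPM (1.97, SE 0.24, adjusted p = 0.00028) and CLOCK from 53.5 and 52.5 to 105, 91.9 and 91.6 CPM (0.86, SE 0.18, adjusted p = 0.00925), while NFIL3 was the member that fell. SEL1L of endoplasmic reticulum degradation rose from 22.3 and 35.9 to 83.4, 93.6 and 95.3 CPM (1.64, SE 0.31, adjusted p = 0.00454), and the heat shock factor HSF1 fell from 78.9 and 44.5 to 22.7, 24.6 and 29.6 CPM (-1.27, SE 0.26, adjusted p = 0.0082; -0.79 without library 6), in a list of 37 with 2 higher (6 without library 6, 4 without library 7) and 1 lower. Of 32 muscle ubiquitin ligase and autophagy genes 8 rose (25.0%) and 0 fell (1 without library 6, 3 without library 7), among them WWP1 (24.7 and 18.8 against 74.4, 62.2 and 68.6 CPM, 1.65, SE 0.27, adjusted p = 0.00196), the mitophagy receptor BNIP3L (1.40) and FBXO40 (1.29; lost without library 7, 1.15, adjusted p = 0.0602). NFE2L2, the master regulator of antioxidant genes, rose by 1.21 and PRDX6, a peroxiredoxin, by 1.34, in a list of 27 with 3 higher and 0 lower. That share lay below the 14.1% of all genes. Of its 19 members above 0 in all 5 libraries 2 were called higher, to be read against 9.25% of the 9102. Without library 7 that list had 9 higher and 1 lower, and without library 6 it had 5 and 1. CHRM2, the muscarinic receptor of the atria, had 42.5 and 34.95 against 118, 90.2 and 176 CPM (1.73, SE 0.50, adjusted p = 0.047) and lost its call without library 3, 4, 6, 7, 8 or 10 (1.72, 1.82, 1.88, 1.66, 1.78 and 1.42). Of 40 proteasome genes 2 rose (5.00%), both from 0, and PSMD3 fell (-0.68). The higher count was 13 without library 6, 6 without library 7 and 17 on log2(TPM + 1). PSMD3 held its call in 2 of the 10 fits without 1 library (-0.78 without library 6 and -0.84 without library 10), and its sign turned on the TPM scale.

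**Figure D4:**
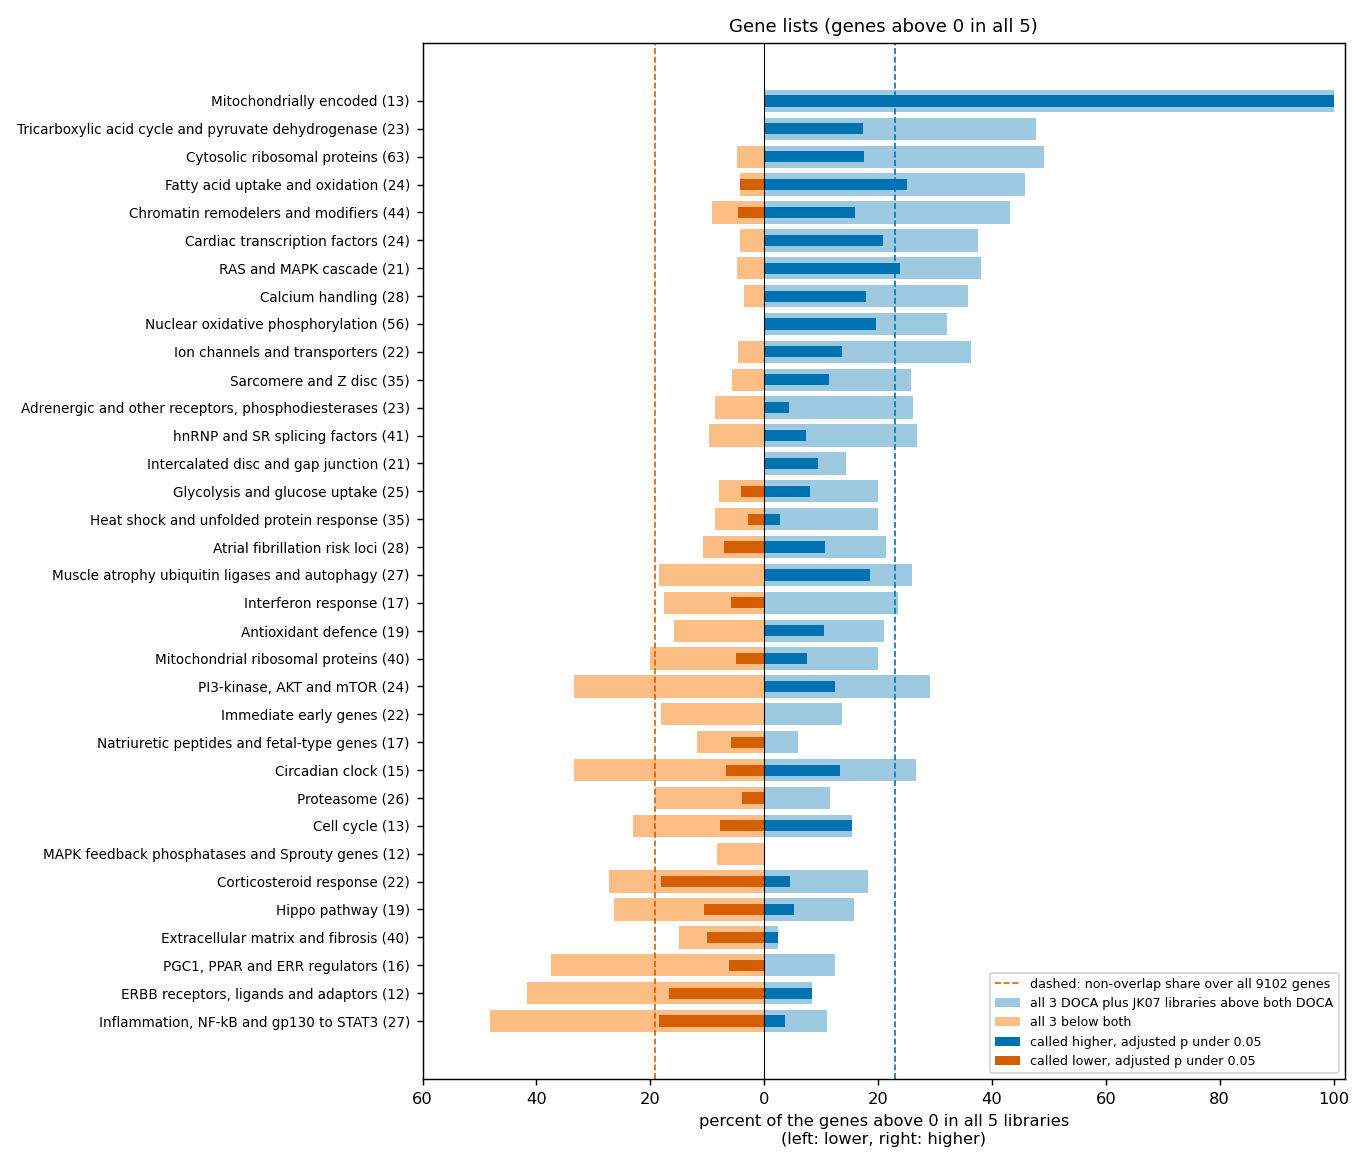
Share of the members of each gene list that lie entirely higher or entirely lower with JK07 (wide bars) or were called (narrow bars), among members above 0 in all 5 libraries, with their number in brackets; dashed lines give the shares over all 9102 genes, 22.9% higher and 19.1% lower. All 13 mitochondrially encoded genes lie higher, and the inflammation list has 13 of 27 members entirely lower.

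Of 36 interferon response genes 14 were called higher and 1 lower, yet all 14 were at 0 in both DOCA libraries, among them the antiviral genes IFIT1, IFIH1, RIGI, EIF2AK2 and USP18. Of the 17 members above 0 in all 5 libraries, 0 were called higher and 1, IRF3, lower (-0.87, SE 0.24, adjusted p = 0.0331; lost without library 3, 4, 5, 7, 8 or 9, -0.87, -0.76, -0.76, -0.64, -0.75 and -0.79). Every higher call of this list thus lacks a measured level in the DOCA group.

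Across all genes tested, 4754 were at 0 in both DOCA libraries and 3169 in 1 of them. In 2167 a gene at 0 in both was above 0 in all 3 JK07 libraries, and in 12 the reverse held. QSER1, SLF2, HYCC2, GPAM, an enzyme that starts triglyceride synthesis, and CDK1, the mitotic kinase, had the highest JK07 levels among those with a symbol. QSER1 had 85.2, 95.5 and 106 CPM with JK07 and SLF2 had 81.3, 91.1 and 91 CPM, HYCC2 85.7, 85.5 and 82.4 CPM, GPAM 130.5, 48.02 and 43.6 CPM and CDK1 118, 79.2 and 21.4 CPM. Only 3.96% of deposited coverage values above 0 lay under 1, so a gene at 0 can mean a coverage under about 1. A coverage of 1 stands for 19.7 and 26.8 CPM of QSER1 in libraries 6 and 7, and for 64.1 and 87.0 CPM of CDK1. The JK07 levels of QSER1 exceed that limit in each library, and those of CDK1 do not in library 10 (nor, against library 7, in library 9). No fold is given for these genes.

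Of the 12 genes of the reverse set, 8 had a symbol, and the 5 with the highest DOCA level are given. PTX3, pentraxin 3 of innate immunity, had 58.9 and 41.3 CPM with DOCA and was listed at 0 in all 3 JK07 libraries and at no more than 7.37 CPM in controls (adjusted p = 0.00825). LIF, a ligand of gp130, had 20.5 and 26.9 CPM with DOCA and 0 in all JK07 libraries (adjusted p = 0.0767). The JK07 libraries were the deeper ones: a coverage of 1 stands there for 2.08 to 2.91 CPM of PTX3 and 5.016 to 6.999 CPM of LIF, below the DOCA levels. PANX1 (17.5 and 29.1 CPM), RND1 (14.6 and 6.6 CPM) and ASPG (6.84 and 11.5 CPM) were also at 0 in all 3 and did not pass (adjusted p = 0.109, 0.209 and 0.0804).

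All 7 cardiomyocyte markers found by symbol were above 0 in all 5 libraries and 0 were called. Their summed level was 22894 to 37352 CPM with DOCA and 32500 to 52988 CPM with JK07. Fibroblast markers summed to 3919 to 15848 CPM with DOCA and 3985 to 10116 CPM with JK07 (1 of 8 called, POSTN). Endothelial markers summed to 699 to 1216 and 735 to 1133 CPM (1 of 7 called, EMCN, from 0), and macrophage markers to 371 to 479 and 184 to 478 CPM (0 of 7). Smooth muscle and pericyte markers summed to 455 to 519 and 428 to 699 CPM (1 of 6, RGS5, 1.60; lost without library 6, 7, 8 or 9, 1.80, 1.51, 1.57 and 1.62). In each of these lists the summed ranges overlapped between the groups. All 5 lymphocyte markers, of which 2 passed the filter on low counts, were at 0 in both DOCA libraries, and 2 were at 0 in all 10. Their sum was 6.61 to 16.9 CPM with JK07 and 7.69 to 13.35 CPM in controls. The 4 Schwann cell markers found (2 tested) summed to 0 with DOCA, to 27.6 to 49.2 CPM with JK07 and to 0 to 40.5 CPM in controls. Of these markers 2 were at 0 in all 10 libraries. In bulk libraries fewer cells of a type and less RNA per cell cannot be told apart. Zeros in the shallower DOCA libraries can also stand for a low coverage, so a marker at 0 is not thereby shown to be absent. The part of the coverage limit in these zeros was not tested. Atrial markers summed to 4601 to 4807 CPM with DOCA and 3680 to 6524 CPM with JK07, and ventricular markers to 60.7 to 62.1 and 149 to 481 CPM, the JK07 values from MYL3 in large part. MYL2 and IRX4 were at 0 in both DOCA libraries, and 1 of them was at 0 in all 10 libraries.

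Gene span moved with the direction of change. The 842 genes called higher had a median span of 59.0 kb from annotated start to end, the 443 called lower 17.3 kb and all 9102 genes 22.9 kb. In 5 classes of rising span, the median log2 fold change went from -0.27 in the shortest (median 3.08 kb) through -0.21, -0.09 and 0.22 to 0.27 in the longest (median 146 kb). The share called higher was 3.51% in the shortest class and 18.2% in the longest, while the share called lower was highest, at 7.26%, in the second class. The part of gene span in the results was not tested.

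**Figure D5:**
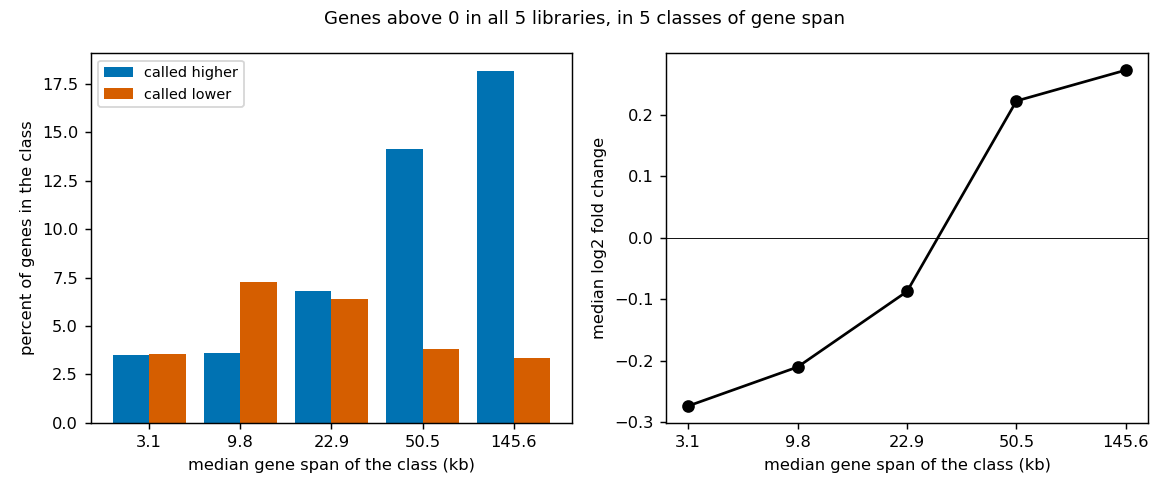
Left, percent of genes called higher (blue) or lower (orange) with JK07 in 5 classes of gene span, each named by its median span in kb; right, median log2 fold change per class. Higher calls go from 3.51% in the shortest class to 18.2% in the longest.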

How the data were processed

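Nuclear RNA of sorted cardiomyocytes was sequenced in 10 libraries. Per the labels, groups were PBS (5), DOCA (2) and DOCA plus JK07 (3). The authors' deposited tables hold whole-number estimated counts per gene, read from their values as computed from coverage, and the deposited per-library tables hold coverage, FPKM and TPM per gene. The submitters' processing notes name SAMtools, StringTie, edgeR and the build Sscrofa11.1; for the aligner, the versions and the strand setting, the sources used here gave nothing. The count table has no gene column, so its rows were joined to the sorted gene IDs of the other tables and checked by their zeros, which matched for 99.998% of values against 62.6% with the rows moved by 1 line. Of 35670 gene IDs, 17640 carried a symbol in the files and 119 more took one from a table of gene names.

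Estimated counts were tested with edgeR 4.0.16 in R 4.3.3 (filterByExpr, TMM, quasi-likelihood F test, all 10 libraries in 1 model with group only), with Benjamini-Hochberg adjustment and a threshold of 0.05. Library size left out ribosomal RNA scaffolds and the mitochondrial genome. The SE of a log2 fold change was its size over the root of F. Alternatives used DESeq2 1.42.0, limma 3.58.1 (quality weights, and log2 of TPM plus 1 or 0.1), other scalings and filters, and fits without each library. TPM was taken as deposited, without rescaling to leave out ribosomal RNA and the mitochondrial genome. The procedure was tested on simulated data. A listed 0 can stand for a low coverage, so no fold is given for a gene at 0 in a whole group. A single count was worth 0.180 and 0.244 CPM in the DOCA libraries.

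Named genes were the 12 with the highest and the 12 with the lowest log2 fold change among those with a symbol, called, above 0 in all 5 libraries and with separate ranges. To these came, per list and direction, up to 3 called members with the lowest adjusted p, a fixed set around ERBB, corticosteroid and cardiac genes, and the 5 genes with the highest level among those at 0 in all libraries of 1 group and above 0 in the other. The 12 nuclear genes with the largest rises (mitochondrial genes fill most of the first set), the 12 falling genes with the lowest adjusted p, RELB, IL6ST, STAT3, COL4A1 and the members named from 0 were added after their values were seen. The members and the 47 gene lists were chosen with earlier results of these data known. Some genes are not reported here. Sequences and GC content were not analysed here.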

Additional observations from a re-analysis of the deposited data

Results flagged for a closer look

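Among 140 named genes, the 5 controls were searched for a library far from the rest (Dixon's test, critical value 0.71). Chance alone marks about 1 in 20 groups, and 7 genes were found. The highest control stood apart for DHODH at 61.1 CPM, TGFB1 at 49.1 CPM and RND1 at 96.0 CPM. The lowest control stood apart for FHIP1B at 49.6 CPM, CXCL12 at 59.3 CPM, TRA2A at 73.5 CPM and NF2 at 60.7 CPM. Groups of 2 and 3 libraries were not tested.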

How the results depend on the processing

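Genes called higher, 2423 of 17179, became 3914 with DESeq2, 6033 on log2(TPM + 0.1), 5533 on log2(TPM + 1), 803 when only the 9155 genes above 0 in all 5 libraries, with no further filter, were tested and 1 with quality weights, and ran from 2084 to 3676 without 1 library. Genes called lower, 448, became 1122, 56 and 92 on the first 3, 4 with quality weights, 105 in a fit of the 5 libraries alone and 754 with upper quartile scaling, and ran from 191 to 813. Among genes above 0 in the libraries compared (9102, or 9082 in the 5 libraries alone and 9096 to 10697 without 1 library), 842 higher became 507 with library size alone, 2646 and 2522 on the TPM scales, 282 in the 5 libraries alone, 1 with quality weights and 559 with upper quartile scaling (543 to 1273 without 1 library). There 443 lower became 1108 with DESeq2, 34 and 57 on the TPM scales, 95, 1 and 749 in the last 3 settings (188 to 801). Separate ranges became 3855 higher and 229 lower on both TPM scales, and ran from 2082 to 4350 and from 1431 to 3641 without 1 library.

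Signs turned for 10 genes. On log2(TPM + 0.1) and log2(TPM + 1) the log2 differences were 0.107 and 0.0875 for SH3PXD2A, 0.107 and 0.0922 for PSMD3, 0.185 and 0.157 for SMARCA4, 0.196 and 0.168 for ERBB2, 1.09 and 0.133 for ERBB3, 0.716 and 0.714 for NPPA, 0.451 and 0.435 for NPPB and 0.203 and 0.200 for FKBP5. ERBB3 was 3.65 with quality weights, and ran from -1.61 without library 6 to 10.88 without library 7, where only a DOCA library at 0 is left. NRG1 ran from -0.15 without library 9 to 2.41 without library 7, and SLN from -0.49 without library 8 to 0.89 without library 10. NPPA was 0.0392 with the most counted locus and small structural RNAs out of library size, a setting chosen after seeing the data, and -0.23 to 0.0724 without 1 library. NPPB ran from -0.59 without library 9 to 0.249 without library 7. TPM, unlike CPM, was not rescaled to leave out ribosomal RNA, so the scales differ in their base. The cause of the turned signs was not tested. Where 1 DOCA library was left, it is assumed to vary like the other groups. The DOCA libraries were the shallowest, and thinning all libraries to the smallest gave 2643 higher and 478 lower. Thinning drew from the deposited counts, so it cannot mimic zeros listed there for low coverage. No paired analysis was possible because the labels number the libraries 1 to 10 with no number shared between groups.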
